A study of Mus musculus with 6 samples.

Results

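The nuclear genes of oxidative phosphorylation were read out across 6 RNA libraries of cultured mouse cerebellar granule neurons, 3 of them with the histone demethylase gene Kdm6b knocked down. Members were taken by name, as the rows of the count table that start with Nduf, Uqcr, Atp5 or Cox4 to Cox8, together with Sdha, Sdhb, Sdhc and Sdhd. Names that contain -ps were left out. This gave 92 of 23366 genes: 38 of complex I, 4 of complex II, 8 of complex III, 18 of complex IV and 17 of complex V, plus 7 Ndufaf genes, which help to assemble complex I. Groups follow the start of the gene name, so Ndufa4 is counted with complex I although its product is now placed in complex IV. Atp5s and Atp5sl, which RefSeq lists as Dmac2l and Dmac2, are counted with complex V by name alone. Subunits encoded by mitochondrial DNA were not analysed here.

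All cultures came from cerebella of postnatal day 7 C57BL/6 mice, each preparation pooling a litter. Granule cells were enriched on a Percoll gradient and plated in a serum-containing neuronal medium. Lentivirus was added on day 1 in vitro: the empty pLKO.1 vector in the 3 control cultures, and pLKO.1 carrying a hairpin against Kdm6b in the 3 knockdown cultures. The control vector holds no hairpin, the labels give the sequence of 1 hairpin, and the labels do not say which cultures, if any, received BDNF.

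Complexes I to IV form the respiratory chain of the inner mitochondrial membrane, which passes electrons from NADH and succinate to oxygen and pumps protons, and complex V is the ATP synthase that the proton gradient drives. Each complex is built from many small subunits, and a few of them carry the catalytic centres. Neurons depend heavily on this pathway, whereas the dividing precursors of granule neurons are known for aerobic glycolysis.

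Gene counts per library ranged from 50326298 to 88214069, and members took 0.696% to 0.967% of them. Kdm6b was at 257, 146 and 170 CPM (counts scaled to library size with TMM factors) in control replicates 1 to 3 and at 88.8, 63.3 and 79.8 CPM in knockdown replicates 1 to 3, so the groups did not overlap. All 15 listed markers of mature granule neurons were detected in both arms. So were all listed markers of astrocytes, the oligodendrocyte lineage, microglia and endothelium, so detection alone does not identify the cell type. The mature granule neuron markers summed to 6113, 6115 and 4740 CPM in the controls, against 5284, 5440 and 4025 in the knockdowns. Of these markers 13 were lower in the knockdown (median log2 fold change −0.42), and with the replicate number as a block in the edgeR fit 3 fell and 0 rose. Of 13 markers of newborn granule neurons 11 were higher (median 0.44, with pair medians of 0.39, 0.54 and 0.18), and 4 rose and 1 fell with the block. All 16 cell cycle genes were lower (median −0.55, with pair medians of −1.32, −0.92 and −0.12), 10 of them in all 3 pairs, and 3 fell with the block. Over all genes tested, 2.58% were called higher and 5.40% lower with the block. All 16 markers of pericytes and fibroblasts were also detected. Their sum was lower in the knockdown library of each replicate pair (13958, 24477 and 27868 CPM in controls, 4755, 7477 and 12751 CPM in knockdowns). The part of these marker shifts in the members' levels was not tested.

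Most members stood slightly higher in the knockdown, and few differences passed a test. Of the 88 members with enough counts to be tested, 76 had a positive log2 fold change (knockdown over control), against 52.5% of all genes tested. The median over these members was 0.16 on the log2 scale, which is 1.12-fold, beside 0.02 over all 15731 genes. Summed over all members, the level was 7525 ± 559 CPM (SD, n = 3) for the controls, against 8537 ± 974 CPM for the knockdowns. The individual sums were 6917, 8016 and 7642 CPM in the controls, against 7888, 9657 and 8067 in the knockdowns, so the groups overlapped.

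By the edgeR quasi-likelihood test adjusted over all genes, 0 members changed when the 6 libraries were compared without regard to replicate number. In that fit 0% of all genes tested were called higher and 0.00636% lower. At an unadjusted p under 0.05 there were 6 members higher, among 4.75% of all genes, and 1 lower, among 5.80% of all genes. DESeq2 and limma-voom without the block likewise called 0 members.

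Control and knockdown libraries that carry one replicate number moved alike, and the number was therefore also entered as a block. With it Cox5a rose and Cox6a2 fell, 1 member in each direction, where 2.58% of all genes were called higher and 5.40% lower; the members' share of calls was thus below the share over all genes in both directions. At an unadjusted p under 0.05 with the block, 26 members were higher, beside 15.8% of all genes, and 2 were lower, beside 18.2% of all genes.

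Directions were also counted without a model. In 26 of the 88 members every knockdown library lay above every control library, a pattern shown by 9.21% of all genes, and in 1 member every knockdown library lay below, as in 7.44% of all genes. The knockdown was the higher library of all 3 replicate pairs for 61 members (31.7% of all genes) and the lower for 9 (28.5% of all genes). Members are parts of the same complexes and are not independent of one another, and no test was run on the list as a whole.

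**Figure D1:**
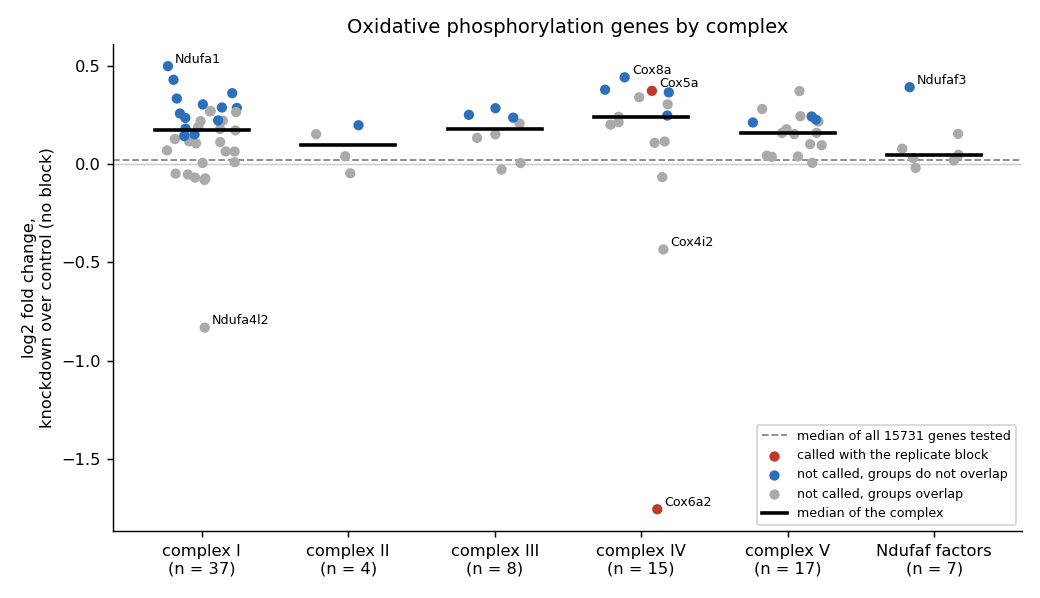
Log2 fold change of each tested member (knockdown over control, fit without the block; 1 point per gene), with the median of each group as a black bar and the median of all 15731 genes tested as a dashed line at 0.02. Red points were called with the replicate block, blue points were not called but had groups that did not overlap; medians run from 0.05 for the Ndufaf factors to 0.24 for complex IV, and Cox6a2, Ndufa4l2 and Cox4i2 lie lowest.

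The size of the shift changed with the library of knockdown replicate 2. That library held the highest CPM of all 6 for 66 of the 88 members, and control replicate 1 held the lowest for 59. By replicate pair, the median log2 difference of the members was 0.16, 0.26 and 0.06 in pairs 1, 2 and 3, beside 0.01, 0.00 and 0.03 over all genes. Without knockdown replicate 2 the members' median was 0.06 in place of 0.16, with 61 of 88 above 0. Without knockdown replicate 1 instead, it was 0.23. The pericyte and fibroblast sum was lowest in replicate 1 of each arm and highest in replicate 3; its part in the members' shift was not tested.

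**Figure D2:**
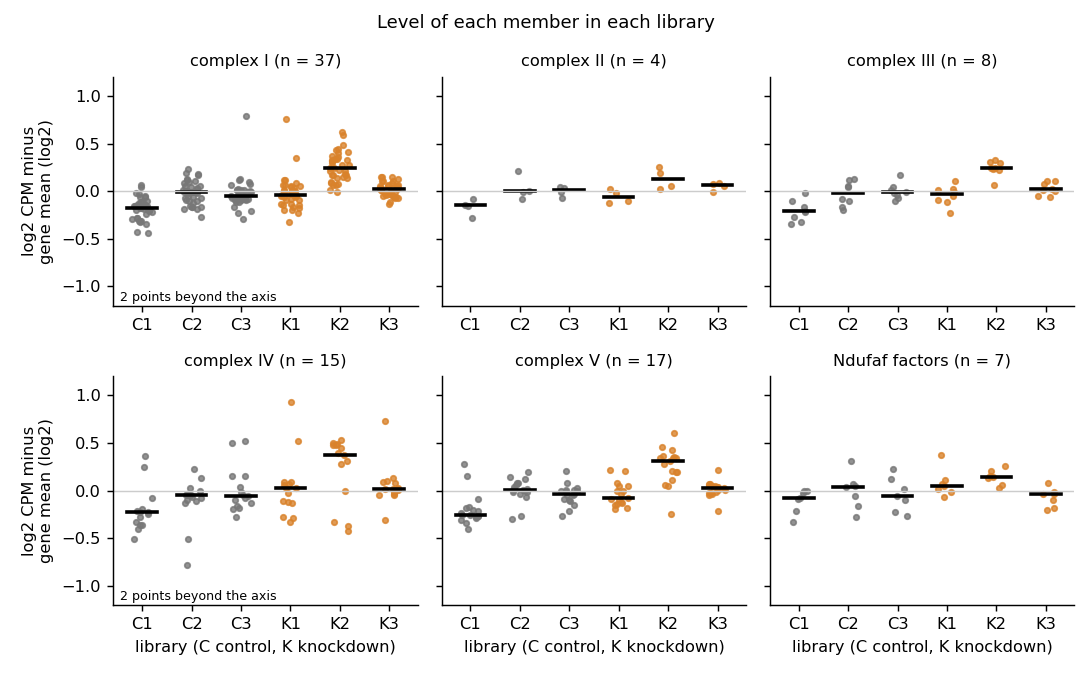
Level of every tested member in each library, as log2 CPM (0.5 added) minus the gene's mean over the 6 libraries, by complex, with group medians as black bars (C, control; K, knockdown). Knockdown replicate 2 (K2) stands highest in each panel, at a median of 0.37 for complex IV, and control replicate 1 (C1) lowest, and 4 points of Cox4i2 and Ndufa4l2 fall beyond the axis.

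The complexes differed in their medians, and these differences were not tested. Complex IV had the highest median at 0.24, followed by complex III at 0.18, complex I at 0.17, complex V at 0.16 and complex II at 0.10, with the Ndufaf factors at 0.05. All 17 members placed in complex V by name were above 0, among them Atp5s at 0.006 and Atp5sl at 0.04. Also above 0 were 12 of 15 in complex IV, 31 of 37 in complex I, 7 of 8 in complex III, 3 of 4 in complex II and 6 of 7 Ndufaf factors. Without knockdown replicate 2 the order of complexes IV, III, V, I, II and Ndufaf gave 0.13, 0.07, 0.06, 0.06, 0.03 and 0.02. Complex IV stayed highest in each of the 6 fits that left out 1 library (0.13 to 0.35). In pair 2 the complex IV median difference was 0.41, against 0.21 in pair 1 and 0.09 in pair 3.

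Complex I, the NADH dehydrogenase, passes electrons from NADH to ubiquinone through subunits of its hydrophilic arm. Its summed level was 2015 ± 101 CPM (SD, n = 3) for the controls, against 2220 ± 233 CPM for the knockdowns. None of the 37 tested members passed the edgeR test over all genes with or without the block. In 13 of them every knockdown library lay above every control (9.21% of all genes), and in 0 every one lay below (7.44% of all genes). The knockdown was the higher library of all 3 pairs for 25 members (31.7% of all genes) and the lower for 6 (28.5% of all genes).

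The highest log2 fold change in complex I was that of Ndufa1, a small accessory subunit of the membrane arm. Ndufa1 was at 31.8, 37.0 and 32.4 CPM in the controls, against 41.6, 60.1 and 41.4 in the knockdowns. All knockdown libraries were above all controls, with knockdown replicate 2 the highest. Its log2 fold change was 0.50 (SE 0.18, edgeR adjusted p = 0.433) without the block and 0.48 (SE 0.10, edgeR adjusted p = 0.0521) with it. Ndufa11, another membrane-arm subunit, was at 30.4, 36.4 and 36.2 CPM in the controls, against 37.8, 51.5 and 42.8 in the knockdowns, again without overlap (log2 fold change 0.36, SE 0.15). Ndufa3 (37.3 ± 3.01 to 45.6 ± 5.19 CPM, SD, n = 3) did not overlap either, while Ndufv3 (65.0 ± 7.43 to 78.3 ± 10.9 CPM, SD, n = 3) was higher in each pair but overlapped between groups. Ndufs7 and Ndufs8 both carry iron-sulphur centres. Ndufs7 was at 38.6, 43.4 and 41.7 CPM in the controls, against 45.5, 50.9 and 43.8 in the knockdowns, without overlap (log2 fold change 0.18, SE 0.11). Ndufs8 was at 30.2, 39.6 and 37.9 CPM in the controls, against 27.6, 38.1 and 36.1 in the knockdowns, lower in all 3 pairs by a small amount (log2 fold change −0.08, SE 0.18).

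Ndufs5, a small accessory subunit, was listed at 0 in all 6 libraries. Ndufs6, another small subunit, had at least 1400 counts in each library. In the GENCODE M21 annotation 31.1% of the 50-base stretches of the Ndufs5 transcript also occur in another annotated transcript, most of them in BC002163. Reads that align more than once were tallied apart from genes in the deposited table, and their part in the 0 for Ndufs5 was not tested.

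Ndufa4 and its paralog Ndufa4l2 went in opposite directions. Ndufa4 was at 118, 140 and 127 CPM in the controls, against 147, 227 and 145 in the knockdowns, all knockdown libraries above the controls. Its log2 fold change was 0.43 (SE 0.20, edgeR adjusted p = 0.514). Ndufa4l2, a hypoxia-inducible gene that is also known as a marker of brain pericytes, was at 83.6, 32.1 and 60.3 CPM in the controls, against 59.0, 4.77 and 34.9 in the knockdowns. It was lower in each of the 3 pairs, most of all in pair 2, yet the groups overlapped because the replicates differed widely. Its log2 fold change was −0.83 (SE 0.82) without the block and −1.27 (SE 0.47, edgeR adjusted p = 0.134) with it. Ndufa4l2 overlaps Shmt2 on the opposite strand, and the labels do not state the strand setting used for counting.

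The Ndufaf factors are not part of the finished complex I. Their sum was 88.9 ± 3.19 CPM (SD, n = 3) for the controls, against 96.5 ± 6.22 CPM for the knockdowns. Ndufaf3 was the exception among them: it was at 17.3, 14.4 and 14.5 CPM in the controls, against 22.9, 20.3 and 17.4 in the knockdowns. All knockdown libraries lay above the controls, though knockdown replicate 3 barely so. Its log2 fold change was 0.39 (SE 0.16) without the block and 0.39 (SE 0.09, edgeR adjusted p = 0.0649) with it. The other 6 lay between −0.02 for Ndufaf4 (SE 0.19) and 0.15, and none of the 7 passed the edgeR test.

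Complex II is succinate dehydrogenase, an enzyme of both the tricarboxylic acid cycle and the respiratory chain, and all 4 of its subunits are nuclear-encoded. Sdha, the flavoprotein that oxidises succinate, was at 192, 247 and 213 CPM in the controls, against 199, 221 and 212 in the knockdowns. The groups overlapped and the log2 fold change was −0.05 (SE 0.13). Sdhb, the iron-sulphur subunit, was at 56.2, 68.7 and 70.5 CPM in the controls, against 62.8, 81.8 and 72.6 in the knockdowns (0.15, SE 0.15), also with overlap. Of the membrane anchors, Sdhc was at 91.6, 96.6 and 99.4 CPM in the controls, against 95.9, 99.1 and 100.7 in the knockdowns (0.04, SE 0.09). Sdhd, the other anchor, was at 71.7, 75.0 and 75.5 CPM in the controls, against 80.6, 90.9 and 83.5 in the knockdowns, which did not overlap (0.20, SE 0.10, edgeR adjusted p = 0.523). The 4 subunits thus differed among themselves, and none passed the edgeR test with or without the block.

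Complex III moves electrons from ubiquinol to cytochrome c. Uqcr11, a small subunit, had its highest log2 fold change (0.28, SE 0.13), with 53.3, 53.8 and 61.6 CPM in the controls, against 62.3, 77.8 and 65.4 in the knockdowns. Uqcrh, the hinge protein, was at 77.3, 74.1 and 77.4 CPM in the controls, against 89.7, 98.4 and 84.1 in the knockdowns (0.25, SE 0.10, edgeR adjusted p = 0.471). Both genes, and the Rieske iron-sulphur protein gene Uqcrfs1 (76.7 ± 4.51 to 90.3 ± 10.2 CPM, SD, n = 3), had knockdown libraries above all controls. Uqcrc2, a core protein of the matrix side, was at 127 ± 3.30 and 125 ± 6.01 CPM (SD, n = 3) with overlapping groups. None of the 8 passed the edgeR test in either fit.

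Complex IV, cytochrome c oxidase, hands electrons to oxygen, and its nuclear-encoded subunits surround a core made in the mitochondrion. Its summed level was 1219 ± 87.8 CPM (SD, n = 3) for the controls, against 1484 ± 238 CPM for the knockdowns, 21.8% higher, the widest relative difference among the 5 complexes. Both members that passed the edgeR test with the block belong to it.

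Cox5a, one of the subunits present in every tissue, was at 81.9, 100 and 90.0 CPM in the controls, against 109.7, 132.8 and 109.5 in the knockdowns. Each knockdown library lay above each control library, and the rise was seen in all 3 pairs. Cox5a rose by 0.37 on the log2 scale (SE 0.07, edgeR adjusted p = 0.0455) with the block. Without the block its log2 fold change was the same at 0.37 (SE 0.13) and did not pass (edgeR adjusted p = 0.423), and an exact two-sided permutation test of these 6 libraries gave p = 0.1, the smallest that 3 against 3 can give. With the block the call was lost when replicate 1, 2 or 3 was left out (edgeR adjusted p = 0.168, 0.117 and 0.0734). Exons of Cox5a overlap the gene Gm26631 on the opposite strand, so its level is uncertain to that extent.

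Cox6a1 and Cox8a stood close behind. Cox6a1 was at 110, 133 and 129 CPM in the controls, against 147, 185 and 150 in the knockdowns, with no overlap (log2 fold change 0.38, SE 0.08, edgeR adjusted p = 0.0553 with the block). Cox8a was at 170, 183 and 165 CPM in the controls, against 213, 289 and 201 in the knockdowns, also with no overlap (0.42, SE 0.10, edgeR adjusted p = 0.0649 with the block). In both genes knockdown replicate 2 was the highest library. Cox6c (102 ± 11.6 to 129 ± 27.9 CPM, SD, n = 3), Cox7a2 (76.7 ± 5.57 to 98.8 ± 20.7 CPM) and Cox7b (63.1 ± 4.39 to 77.9 ± 16.8 CPM) were higher in each pair without passing the test, and Cox7c (log2 fold change 0.21, SE 0.24) turned to −0.02 without knockdown replicate 2.

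**Figure D3:**
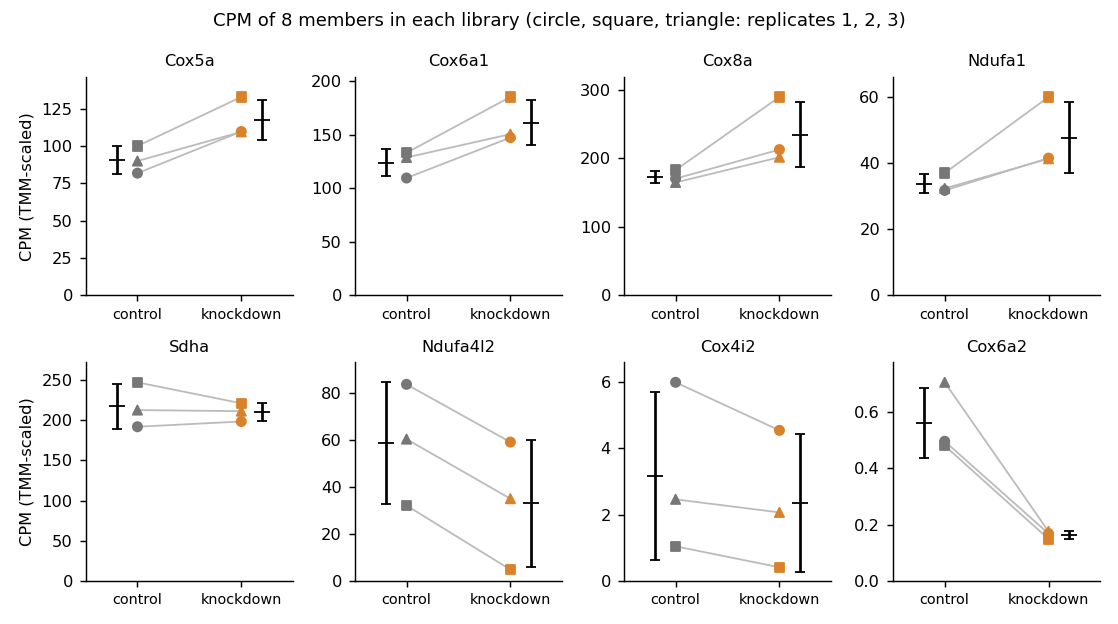
CPM of 8 members in each library (linear axes from 0), with grey lines joining the 2 libraries of each replicate pair, and black marks for group means with SD (n = 3). Cox5a, Cox6a1, Cox8a and Ndufa1 have no overlap and are higher in the knockdown of each pair, Sdha overlaps, Ndufa4l2 and Cox4i2 are lower in each pair but overlap, and Cox6a2 lies below 1 CPM.

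Promoters of respiratory genes are known for sites of NRF1, of ETS factors such as GABP, and of YY1. RefSeq promoters (build GRCm38.p6, 250 bases before to 50 after the start) were found for 76 of the 92 members. The letters CGCANGCG, the core of the NRF1 site, occurred on either strand in 27 of these 76 (35.5%), against 8.42% of all 27025 promoters of the table. CCGGAAG, an ETS site, occurred in 16 (21.1%) against 9.12%, and AAGATGG, the core of a YY1 site, in 11 (14.5%) against 6.48%. Complex IV had the NRF1 letters in 1 of 13 promoters, complex V in 8 of 16 and complex I in 10 of 33. The complex IV promoters are not the set behind its median fold change. They include the untested Cox7b2 and Cox8b and lack Cox4i1, Cox4i2, Cox6a2 and Cox6c. The 27025 promoters were not limited to genes expressed in these cultures, and the matches describe the sequence alone.

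Shown are the promoters of Cox5a, the member that rose, and of Cox6a1 and Cox8a, whose p came next in complex IV. That of the complex I member Ndufa11, which also stood higher without overlap, is added and is no contrast to them. Capitals mark matches to any of the 3 motifs, and the annotated start is the base after the first 250.
Cox5a (chr9:57520982-57521281, plus strand): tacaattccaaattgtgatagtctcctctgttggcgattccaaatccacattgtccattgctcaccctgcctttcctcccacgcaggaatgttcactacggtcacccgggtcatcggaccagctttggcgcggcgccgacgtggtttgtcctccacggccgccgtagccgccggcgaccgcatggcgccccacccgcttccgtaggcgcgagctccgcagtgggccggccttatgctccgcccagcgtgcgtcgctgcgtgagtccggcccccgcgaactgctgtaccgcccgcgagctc
Cox6a1 (chr5:115348909-115349208, minus strand): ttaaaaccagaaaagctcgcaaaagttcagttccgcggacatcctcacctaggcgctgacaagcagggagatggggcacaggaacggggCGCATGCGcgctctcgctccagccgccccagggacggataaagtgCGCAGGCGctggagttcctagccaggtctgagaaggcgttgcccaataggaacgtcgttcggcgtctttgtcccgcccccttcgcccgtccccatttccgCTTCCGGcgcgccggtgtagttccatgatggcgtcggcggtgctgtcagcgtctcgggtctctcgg
Cox8a (chr19:7217567-7217866, minus strand): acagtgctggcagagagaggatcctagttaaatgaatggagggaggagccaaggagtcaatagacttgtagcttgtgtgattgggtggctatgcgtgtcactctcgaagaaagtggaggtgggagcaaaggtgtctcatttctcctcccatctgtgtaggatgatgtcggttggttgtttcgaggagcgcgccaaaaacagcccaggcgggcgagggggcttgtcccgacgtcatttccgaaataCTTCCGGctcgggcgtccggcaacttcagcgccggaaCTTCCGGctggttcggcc
Ndufa11 (chr17:56717512-56717811, plus strand): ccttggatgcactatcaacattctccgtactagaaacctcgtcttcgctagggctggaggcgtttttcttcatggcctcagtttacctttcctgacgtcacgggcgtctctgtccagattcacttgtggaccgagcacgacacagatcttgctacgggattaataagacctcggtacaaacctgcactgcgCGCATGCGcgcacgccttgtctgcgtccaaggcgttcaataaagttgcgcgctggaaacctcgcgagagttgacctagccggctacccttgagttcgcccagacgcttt
Cox6a1 holds 2 NRF1 matches and 1 ETS match, Cox8a 2 ETS matches and Ndufa11 1 NRF1 match, while the Cox5a window holds none of these letters. The promoter of Ndufa1, the member of complex I with the highest log2 fold change, is not shown and holds none of them either. Whether motif matches go with the fold changes was not tested.

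Cox6a2, the form of subunit VIa made in heart and skeletal muscle, had the lowest level of the tested members per kilobase of mRNA and was the 1 that fell. Its raw counts were 36, 24 and 37 in controls and 15, 8 and 12 in knockdowns, which is 0.496, 0.480 and 0.705 CPM against 0.168, 0.148 and 0.176 CPM. All knockdown libraries lay below all controls. The log2 fold change was −1.74 (SE 0.30, edgeR adjusted p = 0.0427) with the block and −1.76 (SE 0.35, edgeR adjusted p = 0.225) without it. Dropping replicate 1, 2 or 3 ended the blocked call (edgeR adjusted p = 0.122, 0.102 and 0.0925), and DESeq2 gave Cox6a2 no adjusted p. Cox6a2 overlaps Itgad on the opposite strand.

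Several subunits of complex IV come as a common form and a form of particular tissues, and the common form predominated in each pair compared per kilobase of mRNA. Cox4i1 was at 273 and 322 CPM per kilobase in controls and knockdowns (means), against 4.31 and 3.19 for Cox4i2, the form made in lung and known from oxygen-regulated cells and brain pericytes. Cox6a1 was at 217 and 282 CPM per kilobase against 0.824 and 0.241 for Cox6a2, Cox6b1 at 173 and 205 against 15.4 and 16.6 for the testis form Cox6b2, and Cox7a2 at 116 and 150 against 2.67 and 2.90 for the muscle form Cox7a1. Cox8b had 3, 0 and 4 counts in controls and 0 in each knockdown, Cox8c had 1 count in control replicate 1 alone, and Cox7b2 had 0 to 5 counts, and these 3 genes were too low to test. Cox7a2l, a gene linked to supercomplexes of complexes III and IV, was at 99.7, 107 and 117 CPM in the controls, against 97.6, 105 and 106 in the knockdowns (log2 fold change −0.07, SE 0.11). Supercomplexes were not measured here.

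Cox4i2 had 5.99, 1.04 and 2.46 CPM in the controls, against 4.54, 0.408 and 2.06 in the knockdowns. It was lower in all 3 pairs, and its groups overlapped because replicate 1 was high and replicate 2 low in both arms. The log2 fold change was −0.43 (SE 0.94) without the block and −0.59 (SE 0.26, edgeR adjusted p = 0.186) with it, and it turned to 0.42 without control replicate 1 and 0.05 without knockdown replicate 2. Cox4i2 and Ndufa4l2 had their lowest values in replicate 2 of each arm, as did the summed oligodendrocyte lineage markers (1282, 155 and 1314 CPM in the controls, against 950, 113 and 1066 in the knockdowns). The summed pericyte and fibroblast markers, a sum made up mostly of collagen genes and Fn1, were lowest in replicate 1 of each arm. Of the pericyte and fibroblast list 10 of 16 fell with the block, beside 5.40% of all genes, and 0 rose. The median log2 fold change of that list was −1.24. The part of either kind of cell in the levels of Cox4i2, Ndufa4l2 and Cox6a2 was not tested. In such bulk RNA, fewer cells of a type and less RNA per cell cannot be told apart.

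Complex V, the ATP synthase, summed to 3100 ± 284 CPM (SD, n = 3) for the controls, against 3553 ± 405 CPM for the knockdowns. Atp5b, the catalytic beta subunit, was at 821, 1057 and 899 CPM in the controls, against 1036, 1271 and 981 in the knockdowns, higher in each pair with overlapping groups (log2 fold change 0.24, SE 0.18, edgeR adjusted p = 0.657). Atp5a1, the alpha subunit, was at 661, 742 and 717 CPM in the controls, against 800, 871 and 784 in the knockdowns without overlap (0.21, SE 0.14, edgeR adjusted p = 0.605). Among the 5 subunits of the F1 head and central stalk the median was 0.21, among the 4 of the peripheral stalk 0.16 and among the 6 of the membrane part 0.17. Atp5l, in the membrane part, was the highest at 0.37 (SE 0.21): it was at 68.2, 81.4 and 70.8 CPM in the controls, against 78.3, 125 and 81.6 in the knockdowns, so that the difference lay mostly in replicate 2.

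Atp5g1, Atp5g2 and Atp5g3 encode the same mature c subunit of the proton-driven ring. Atp5g3 was at 169, 204 and 196 CPM in the controls, against 187, 261 and 213 in the knockdowns (log2 fold change 0.22, SE 0.16). Atp5g1 was at 63.9, 97.3 and 83.0 CPM in the controls, against 77.6, 109 and 86.4 in the knockdowns (0.16, SE 0.20). Atp5g2 was at 88.7, 105 and 123 CPM in the controls, against 92.8, 110 and 123 in the knockdowns (0.04, SE 0.17). All 3 were higher in each pair with overlapping groups, by least in Atp5g2. Of the 50-base stretches of the Atp5g2 transcript 87.4% also occur in transcripts of other genes, and 84.8% of those of Atp5l do, so their counts are uncertain. Atp5s, a coupling factor that is no core subunit, was at 8.25 ± 1.75 and 8.29 ± 1.39 CPM (SD, n = 3).

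Medians were also read by sequence shared with other genes, as a description. The 41 tested members without any 50-base stretch in common with another gene had a median log2 fold change of 0.15, the 18 with up to 10% of such stretches 0.17 and the 29 with over 10% 0.21. The 29 with exons that overlap a gene on the opposite strand had a median of 0.18 and the other 59 of 0.15.

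Short mRNAs were common among the members, with a median length of 921 bases against 2997 over all genes tested (GENCODE M21, 1 transcript a gene). Among other genes as well, the shortest mRNAs had the highest median in the fit over all 6 libraries, and the longest had the lowest. Genes that are no members had a median log2 fold change of 0.14 for mRNAs up to 600 bases (241 genes), 0.07 in the next class up to 800 bases (295 genes) and −0.00 above 2500 bases (9556 genes). The members of the same classes had medians of 0.24 (19 genes), 0.22 (19 genes) and 0.07 (7 genes). In pairs 1, 2 and 3 the other genes had medians of 0.06, 0.12 and 0.04 up to 600 bases. Above 2500 bases these were −0.01, −0.02 and 0.01, and in pair 3 the class of 1500 to 2500 bases was highest at 0.06. Restricted to mRNAs of up to 1000 bases whose mean level reached 20 CPM, 43 members had a median of 0.24 and 277 other genes of 0.04. Over 1000 bases at that level, 33 members had a median of 0.11 and 8011 other genes of 0.02. The part of mRNA length in the members' shift was not tested.

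**Figure D4:**
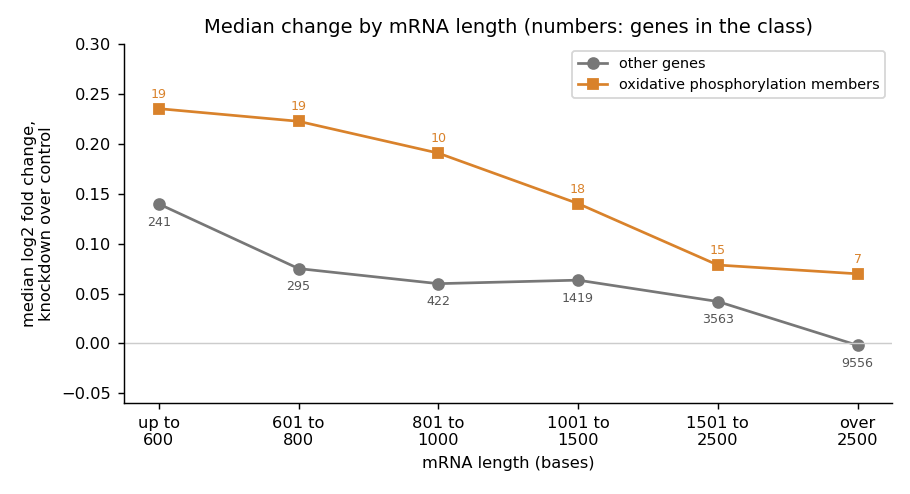
Median log2 fold change (knockdown over control, fit without the block) of members and of other genes in classes of mRNA length, with the number of genes in each class beside its point. Both lines decline from short to long mRNAs, from 0.24 to 0.07 in members and from 0.14 to −0.00 in other genes.

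Genes around the 5 complexes were read from lists drawn up from general knowledge. Of 19 assembly factors of complex IV 13 were above 0 (median log2 fold change 0.08), and none passed the edgeR test in either fit. Complex V assembly and regulation (5 genes, median 0.29), complex I factors outside the Ndufaf names (7 genes, −0.00), complex III factors (4 genes, 0.06) and electron carriers (5 tested genes, −0.08) likewise had no call. Atpif1, the inhibitor of ATP synthase, was at 76.8, 83.7 and 91.2 CPM in the controls, against 106, 123 and 100 in the knockdowns, without overlap (0.39, SE 0.12, edgeR adjusted p = 0.392). In the same list Tmem70, an assembly factor of ATP synthase, was at 29.5, 34.8 and 33.6 CPM in the controls, against 24.1, 26.6 and 26.9 in the knockdowns, all below the controls (−0.33, SE 0.07, edgeR adjusted p = 0.0565 with the block, where Atpif1 had 0.0768). Ttc19, a complex III factor, also had every knockdown below every control (41.9 ± 2.99 to 32.5 ± 5.73 CPM, SD, n = 3; log2 fold change −0.37). Etfdh, which passes electrons from fatty acid oxidation to ubiquinone, was lower in all 3 pairs with overlapping groups (−0.36). Cycs, which encodes cytochrome c, was at 86.9, 137 and 108 CPM in the controls, against 106, 142 and 108 in the knockdowns (0.10, SE 0.21), with overlap.

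Of 17 genes of pyruvate dehydrogenase and the tricarboxylic acid cycle 15 were above 0, with a median log2 fold change of 0.09, and 1 was called with the block, where 2.58% of all genes were called higher. Pdhb, a subunit of pyruvate dehydrogenase, rose with the block (79.5, 86.9 and 71.3 CPM in controls, 101, 118 and 87.6 CPM in knockdowns; log2 fold change 0.36, SE 0.07, edgeR adjusted p = 0.0470) and not without it (edgeR adjusted p = 0.469). Of 17 regulators of mitochondrial biogenesis 1 fell with the block and 0 rose, a share close to the 5.40% of all genes called lower. This was Ppargc1b, a coactivator of mitochondrial genes, at 12.6, 20.5 and 12.3 CPM in the controls, against 7.02, 11.7 and 6.34 in the knockdowns. The groups did not overlap, with a log2 fold change of −0.86 (SE 0.10, edgeR adjusted p = 0.0282) with the block and −0.85 (SE 0.33, edgeR adjusted p = 0.461) without it. Its relative Ppargc1a was at 43.5, 36.8 and 36.9 CPM in the controls, against 44.2, 33.2 and 30.6 in the knockdowns (−0.12, SE 0.17), and Nrf1, a transcription factor for many respiratory genes, at 28.0, 31.2 and 31.7 CPM against 25.8, 29.9 and 28.2 CPM (−0.11, SE 0.12).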

How the data were processed

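Stranded mRNA sequencing used single-end reads of 50 bp, per the labels' protocols. The authors deposited raw read counts for each gene, produced with Trimmomatic, TopHat2 and HTSeq on build mm9, with edgeR and DESeq2 also named, per the submitters' processing notes; their versions, the annotation and the strand setting were not stated there. Tallies that name no gene were left out: 12.1% to 15.0% outside genes, 0.406% to 0.509% ambiguous, 16.0% to 19.3% not unique.

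After filterByExpr (count of at least 10, total of at least 15), 15731 genes were scaled by TMM and tested with the quasi-likelihood test of edgeR 4.0.16 in R 4.3.3, adjusted over all genes (Benjamini-Hochberg, 0.05). DESeq2 1.42.0, limma-voom (limma 3.58.1) and other scalings were alternatives, and fits were tested on simulated data. CPM are TMM-scaled. Standard errors came from the size of the log2 fold change over the root of its F statistic. The series calls its replicates biological without saying whether each came from its own preparation, and p-values thus measure only how these samples spread, which may be technical.

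Deviations from the group mean were alike in libraries that share a replicate number (correlations across genes of 0.814, 0.673 and 0.759; other pairs −0.542 to 0.0166), so the pairing, which comes from the data, is used as a block where it changes a call.

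Members and lists were chosen with earlier results of these data known. Named members are those called in either fit, the highest, lowest and smallest p of each group, the Sdh genes, tissue-form sets and members too low to test; others, and the motif letters, were chosen after values were seen. Transcript lengths, 50-base stretches and overlaps come from GENCODE M21 (GRCm38), matched by name for all 92 members and 23003 of 23366 genes. No coordinates were moved between builds.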

Additional observations from a re-analysis of the deposited data

How the results depend on the processing

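Among the tested members depth limits Cox6a2 most, which rests on 8 to 37 counts a library. The members' median minus that of all genes was 0.13 to 0.16 under each scaling, filter and tool tried, and 0.06 to 0.24 when 1 library was left out. Library totals alone raised the median of all genes from 0.02 to 0.09. In edgeR with the TMM scaling and filter as described, the pairing changed the call of Cox5a and Cox6a2 and of no other member. In limma-voom with the same scaling and filter it also changed the call of Ndufa1.

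Genes called over all genes numbered 1 by default, 568 with DESeq2, 0 with library totals alone and 0 in each fit without 1 library; with the replicate block they numbered 1256, and then 1342 (RLE), 1350 (upper quartile), 1276 (library totals), 1598 (no filter), 1439 (mean of at least 5 CPM), 3440 (DESeq2) and 1394 (limma-voom), or 0, 53 and 1272 without pair 1, 2 and 3. Members called numbered 2 with the replicate block, and also 2 with RLE or upper-quartile factors, 5 with library totals, 3 with no filter, 3 at a mean of at least 5 CPM, 7 with DESeq2 and 3 with limma-voom; without 1 pair they numbered 0. The added block settings were chosen after seeing the data. Calls gained under them were Ndufa1, Cox6a1, Cox8a, Ndufa11, Ndufa4 and Ndufaf3, each higher.

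With library totals alone the median log2 fold change was 0.17 for complex II (0.17 with the block) and 0.12 for the Ndufaf factors (0.12). With 1 library or pair left out, medians ranged from 0.061 to 0.215 for complex I, from 0.030 to 0.146 for complex II, from 0.062 to 0.258 for complex V and from 0.015 to 0.194 for the Ndufaf factors. Moving Ndufa4 and Ndufa4l2 to complex IV and leaving out Atp5s, Atp5sl and Cox7a2l gave 0.17, 0.24 and 0.18 for complexes I, IV and V.

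Several genes changed sign, none of them called in the fit without the block; Cox4i2 was at −0.43 there, Cox7c at 0.21 and Atp5g1 at 0.16, and the other 9 lay between −0.08 and 0.12. Atp5s was at −0.0111 with RLE factors, −0.0112 with DESeq2, −0.0053 with no filter, and with the block −0.0034 (RLE), −0.0042 (DESeq2) and −5.6e-05 (no filter). Ndufaf4 was at 0.0060 with the block and upper-quartile factors and 2.25e-06 at a mean of at least 5 CPM. With library totals alone Cox7a2l, Ndufaf4, Sdha and Uqcrc2 were at 0.0077, 0.045, 0.023 and 0.041, and with the block too at 0.0065, 0.066, 0.030 and 0.042. With 1 library or pair left out the log2 fold change ranged from −0.0049 to 0.31 for Atp5g1, −0.073 to 0.15 for Atp5g2, −0.14 to 0.17 for Atp5s, −1.35 to 0.42 for Cox4i2, −0.36 to 0.43 for Cox6b2, −0.31 to 0.45 for Cox7a1, −0.024 to 0.38 for Cox7c, −0.14 to 0.16 for Ndufaf4, −0.19 to 0.047 for Ndufs8 and −0.13 to 0.056 for Sdha. With the block, leaving out pair 2 gave −0.027 for Atp5s, 0.056 for Ndufaf4 and 0.0028 for Sdha, and leaving out pair 3 gave −0.010 for Atp5s and −0.011 for Cox6b2. The causes were not tested.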
